A study of Arabidopsis thaliana with 10 samples.

Results

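The mature microRNAs (miRNAs) of wild-type Arabidopsis thaliana seedlings are described here from the 2 wild-type small RNA libraries, out of 10 libraries in the series. Both come from whole seedlings, 5 days old, of line E5-4 in the Ler ecotype, which the labels pair with a homozygous fve-8 mutant as its wild type. E5-4 is not described further in the labels. Seedlings were bleach-sterilised, raised on MS medium in mid light without treatment, and extracted with Trizol. The labels number the libraries as repeats 1 and 2 and do not say that they came from separate cultures, so the spread between them may be technical. The fve-8 libraries are not analysed here. All 428 mature miRNA entries of the deposited small RNA table are included, whatever their counts.

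A plant miRNA starts as a hairpin in a primary transcript, is cut out by the Dicer enzyme DCL1, and is loaded into an Argonaute protein, mostly AGO1, which it guides to matching messenger RNAs. Many plant miRNAs belong to families in which several genes give the same or almost the same mature sequence. Families shared by flowering plants control developmental timing, leaf polarity, auxin response and nutrient balance, and families of narrower distribution are often weakly transcribed. The table names its entries by miRBase accession (MIMAT numbers), which the registry issues in order of entry. The sources used here do not pair these numbers with miRNA names or sequences, so entries are given by number, with no family or target.

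The tissue label was checked in the 3 wild-type RNA libraries, which are other libraries than the small RNA ones. All 5 leaf markers (LHCB1.1, RBCS1A, CAB3, LHCB2.1 and RCA) were present at 735 to 9416 CPM (counts scaled to a library total of 1000000), and all 5 root markers (TIP2;3, CASP1, COBL9, PHT1;1 and RHD2) at 3.99 to 33.5 CPM. The seed markers CRA1, OLEO1 and OLEO2 stood at 6.24 to 47.6 CPM. Of the pollen markers, VGD1 was at 0 and SYP124 reached at most 0.184 CPM.

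Counts were concentrated on few entries. Replicate 1 held 1280675 counts and replicate 2 held 967163. The 10 entries with the highest mean share held 41.9% of the counts in replicate 1 (95% Wilson interval 41.8 to 42.0%) and 44.9% in replicate 2 (44.8 to 45.0%), or 43.4% ± 2.1 (SD, n = 2). The top 50 held 92.1% in each library, and the top 100 held 98.0% and 97.8%. Counting down from the highest entry, 14 entries in replicate 1 and 13 in replicate 2 were enough for 50% of the counts, 43 in each for 90%, and 126 and 132 for 99%. The mean count per entry was 2992 and 2260, whereas the median was 49 and 40. The intervals of the top 10 share did not overlap, but intervals and floors here cover counting error only. The intervals of shares also take each count as a separate read, and would be too narrow if reads were counted on several entries.

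At the head of the list stood a pair of entries with almost the same counts. MIMAT0000945 had 88854 and 66462 counts in replicates 1 and 2, and MIMAT0000944 had 88697 and 66362. Each took 6.94% or 6.93% of replicate 1 and 6.87% or 6.86% of replicate 2. The next pair, MIMAT0000176 and MIMAT0001014, was less steady. MIMAT0000176 had 68669 and 67680 counts, or 5.36% and 7.00% of the library (6.18% ± 1.16, SD, n = 2), so that it stood below the first pair by mean share but above it in replicate 2. MIMAT0001014 had 65862 and 64588 counts, or 5.14% and 6.68% (5.91% ± 1.09). MIMAT0001015 followed with 3.96% in each library, then MIMAT0000207 with 3.34% and 3.31% and MIMAT0000177 with 3.32% and 3.28%. MIMAT0001016 had 2.45% and 2.44%. Below these came 9 entries with consecutive numbers, MIMAT0000187 to MIMAT0000195, at 2.22 to 2.23% of replicate 1 and 2.23 to 2.24% of replicate 2. MIMAT0022423, MIMAT0000169 and MIMAT0000172, the last tied with MIMAT0000173, closed the top 20, each higher in replicate 1 (1.93%, 1.92% and 1.85%) than in replicate 2 (1.68%, 1.65% and 1.61%). The top 20 were 63.2% and 65.4% of the counts.

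**Figure D1:**
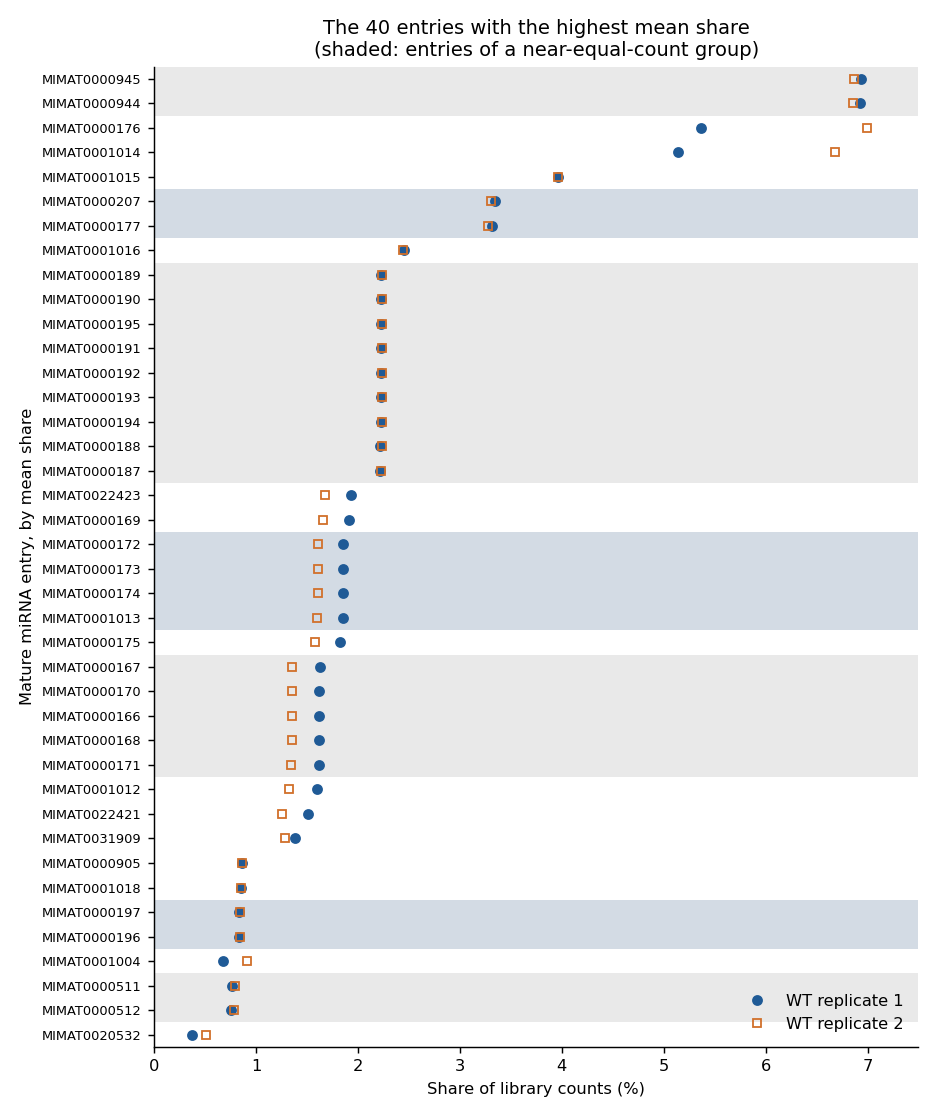
Share of library counts (x axis, percent) for the 40 entries with the highest mean share (y axis), with filled circles for WT replicate 1 and open squares for WT replicate 2. Shading marks entries of a group with near-equal counts. The libraries lie on top of each other for MIMAT0000187 to MIMAT0000195 and apart for MIMAT0000176 (5.36% and 7.00%) and MIMAT0001014.

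Below the top 20, levels fell in steps. A set of 12 entries stood between 1.25% and 1.85% of either library, ending with MIMAT0031909 at 1.39% and 1.28%. The step below it went to MIMAT0000905 at 0.861% and 0.864% and MIMAT0001018 at 0.847% and 0.851%. There were 32 entries with at least 10000 counts in both libraries, and they held 83.1% of replicate 1 and 82.4% of replicate 2. In replicate 1, 61 entries with at least 1000 but under 10000 counts held 11.3%, and in replicate 2, 39 such entries held 13.0%. The 119 and 124 entries with 10 to 99 counts together held 0.357% and 0.488%.

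Entries with low numbers held most of the counts. The 117 entries from MIMAT0000166 to MIMAT0001337 had 89.7% of replicate 1 and 89.8% of replicate 2, with medians of 1298 and 883 counts per entry. The 124 entries from MIMAT0002113 to MIMAT0018504 had 0.797% and 0.918%, with medians of 9 and 8 counts. The 187 entries from MIMAT0020345 upward had 9.46% and 9.27%, with medians of 33 and 30. Of the top 20, 19 came from the first range, and MIMAT0022423 came from the last. Of the top 50, 42 came from the first range, 0 from the middle one and 8 from the last. These figures count every entry, and 14 of the top 20 belonged to 4 groups with near-equal counts, described below. With each such group counted once, MIMAT0022423, MIMAT0022421 and MIMAT0031909 of the last range ranked 8, 14 and 15. The rest of that top 20 came from the first range. Shares of the ranges were not computed that way.

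Groups of entries with near-equal counts made up much of the pool. Among the entries with at least 100 counts in each library, 84 fell into 31 groups in which each member matched another within 1% in both libraries, a rule chosen after the counts were seen. These 84 entries held 64.5% of replicate 1 and 62.1% of replicate 2. Most groups were pairs (24 of 31), and the largest had 9 members, MIMAT0000187 to MIMAT0000195, with 28406 to 28504 counts in replicate 1 and 21569 to 21641 in replicate 2. That group alone summed to 20.0% and 20.1% of the counts. Next in size among the high entries were MIMAT0000166, MIMAT0000167, MIMAT0000168, MIMAT0000170 and MIMAT0000171, with 20762 to 20786 and 13027 to 13061 counts, and MIMAT0000172, MIMAT0000173, MIMAT0000174 and MIMAT0001013, with 23663 to 23751 and 15485 to 15563. In 6 groups with 16 members the counts were identical in both libraries, as for MIMAT0031911 and MIMAT0031912 at 2768 and 2426. Within 30 groups the chi-square of the members' counts was at most 0.139 per degree of freedom in either library. For MIMAT0000177 and MIMAT0000207 it was 1.39 and 1.24, near the 1 that counting error alone gives. That pair was kept as a group, and whether it shares reads was not tested.

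The rule used no identifiers, and in 20 of the 31 groups the members had consecutive numbers. The sources used here do not say how reads that match several entries were counted. A read may therefore stand in the counts of more than 1 entry, and the library totals may exceed the number of reads, which was not tested. With each group counted once, by its highest member, the totals were 709892 and 553644, or 55.4% and 57.2% of the deposited ones.

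Counting each group once made the pool more concentrated. The table then had 375 units, of which the top 10 held 63.4% of replicate 1 and 65.4% of replicate 2 (64.4% ± 1.42, SD, n = 2), against 43.4% by entry. MIMAT0000945, with MIMAT0000944 folded into it, held 12.5% and 12.0%. MIMAT0000176 held 9.67% and 12.2% and MIMAT0001014 held 9.28% and 11.7%. The group of MIMAT0000187 to MIMAT0000195 dropped to 4.02% and 3.91%. Only 7 and 6 units were needed for 50% of the counts, and 30 and 29 for 90%.

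**Figure D2:**
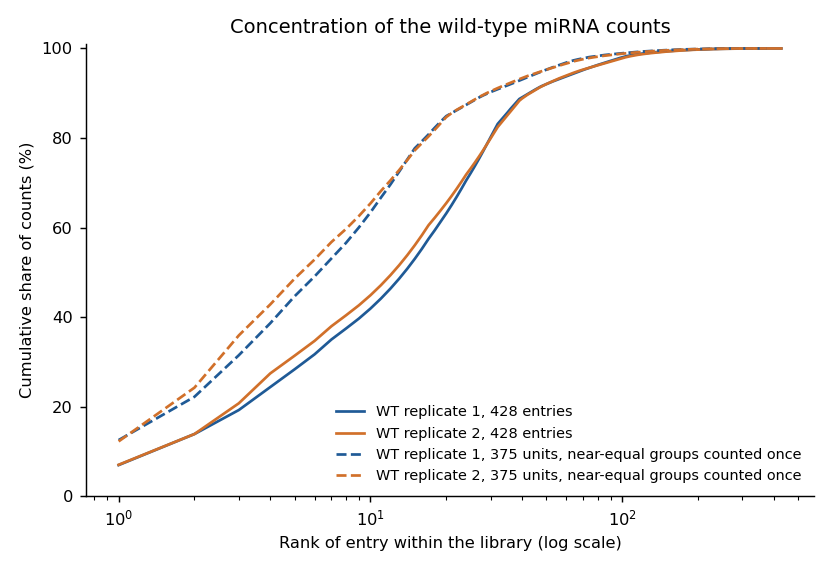
Cumulative share of counts (y axis, percent) by rank of the entry within its library (x axis, log scale). Solid lines use all 428 entries and dashed lines 375 units with near-equal groups counted once, for WT replicate 1 (blue) and WT replicate 2 (orange). The dashed lines pass 50% at 7 and 6 units, the solid ones at 14 and 13 entries.

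Most entries were detected. At least 1 count was present in both libraries for 358 of 428 entries and in either for 388. By library, 371 entries were detected in replicate 1 and 375 in replicate 2, so the library with fewer counts had slightly more entries. Drawn down to 967163 counts, replicate 1 would be expected to show 365 entries against 375 in replicate 2. At a minimum of 3 counts 321 entries were present in both libraries, at 10 counts 280 and at 1000 counts 71. The 30 entries seen in 1 library only, 13 in replicate 1 and 17 in replicate 2, had a median of 1 count and at most 5. MIMAT0004256 was the highest, with 5 counts in replicate 1 and 0 in replicate 2. Such values are within the 3 counts that a count of 0 allows for 26 of the 30.

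The other 40 entries had 0 counts in both libraries. A count of 0 allows up to 3 counts, which is 2.34 CPM in replicate 1 and 3.10 CPM in replicate 2. These entries were therefore not detected at this depth, and their absence was not shown. By number, 8 of them came from the range up to MIMAT0001337, 19 from the middle range and 13 from MIMAT0020345 upward. The 8 of the first range were MIMAT0000181, MIMAT0001321, MIMAT0001323, MIMAT0001325, MIMAT0001326, MIMAT0001327, MIMAT0001328 and MIMAT0001337. The neighbours of MIMAT0000181 by number were well covered, with 1099 and 710 counts for MIMAT0000180 and 4604 and 4022 for MIMAT0000182.

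**Figure D3:**
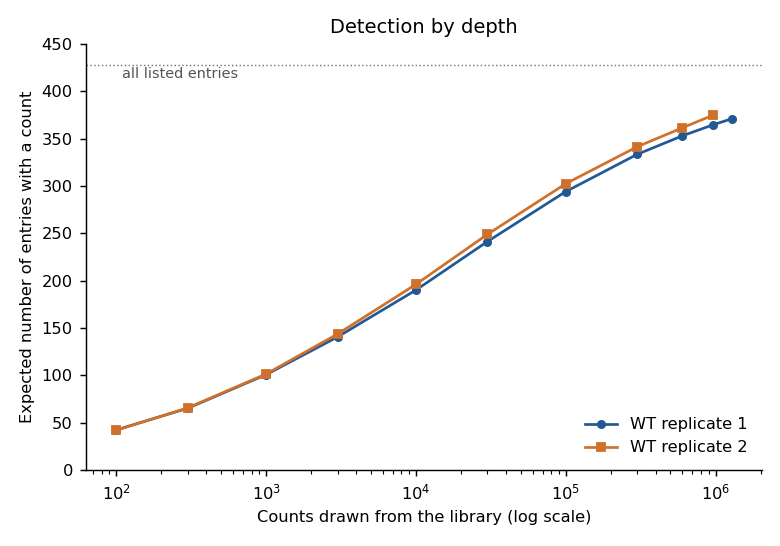
Expected number of entries with at least 1 count (y axis) when a given number of counts is drawn from a library (x axis, log scale), for WT replicate 1 (circles) and WT replicate 2 (squares). The dotted line marks the 428 listed entries. At 967163 counts the curves stand at 365 and 375 entries.

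The libraries ranked the entries alike. Across all 428 entries, log2(CPM + 1) had a Pearson r of 0.990 and the counts a Spearman rho of 0.986. Entries share library and depth and are not independent, so no p-value is given. The 10 highest entries were the same in both libraries, as were the 50 highest, and 98 of the 100 highest were shared. The cut at 10 fell within the near-equal group of MIMAT0000187 to MIMAT0000195, so its last place rests on few counts. MIMAT0000190 (28503 and 21639 counts) was inside the cut and MIMAT0000195 (28501 and 21638) outside. The difference between libraries shrank with abundance at low counts and levelled off from a mean of 100 counts. Among the 70 entries with counts in both libraries and a mean of 1 to 9 counts, the median difference in share was 1.94-fold. It was 1.32-fold for the 116 entries with a mean of 10 to 99, 1.12-fold for the 86 with at least 100 but under 1000, 1.1-fold for the 54 up to 10000 and 1.12-fold for the 32 above those. Of the entries with at least 100 counts in each library, all but MIMAT0020345 and MIMAT0004265 differed by at most 1.5-fold. The common biological coefficient of variation from edgeR, the relative spread beyond counting error, was 0.116. It was computed with edgeR's TMM scaling rather than library totals, and its trend with abundance ran from 0.104 to 0.218.

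**Figure D4:**
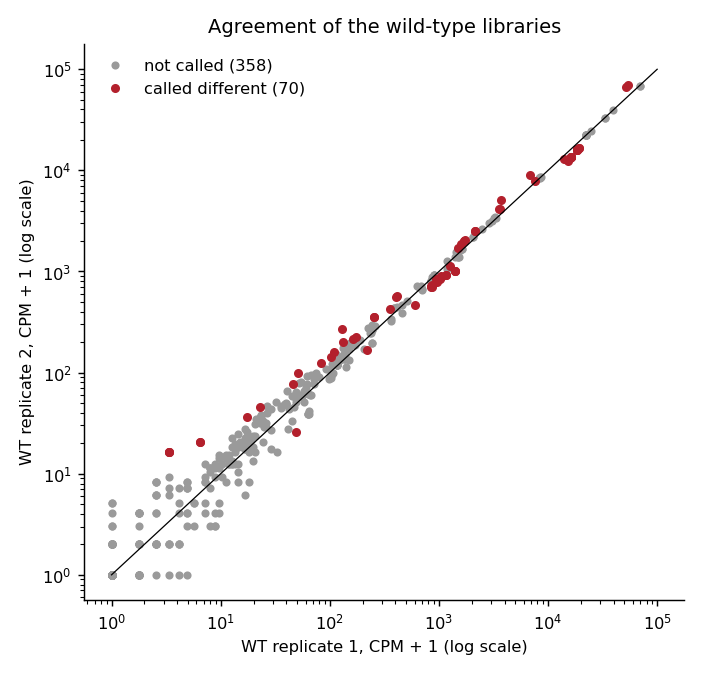
CPM + 1 of each entry in WT replicate 1 (x axis) and WT replicate 2 (y axis), both on log scales, with the line of equality. Red points are the 70 entries called different between the libraries, and grey points are the other 358. Points widen around the line towards low CPM.

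Differences between the libraries were nevertheless larger than counting error. The chi-square over the 388 entries with a count was 10189 on 387 degrees of freedom, or 26.3 per degree. MIMAT0000176 and MIMAT0001014 supplied 45.8% of it, and without them the value was 12.8 per degree. Both values take the entries as independent, although members of a near-equal group repeat almost the same difference. Neither was computed with groups counted once. An exact two-sided binomial test of each entry's split, adjusted by Benjamini-Hochberg over the 388, called 70 entries (18.0%), 35 higher in replicate 2 and 35 higher in replicate 1. This test compares the 2 libraries and no conditions. Of the 70, 29 belonged to near-equal groups, so that they made 53 units with each group counted once. Groups were sought only from 100 counts in each library, so called entries with equal counts below that still stand as separate units. MIMAT0004280 and MIMAT0004282, both with 7 and 19 counts, are examples. Calls became more frequent with the mean count of an entry. They numbered 3 of 70 entries at a mean of 1 to 9 counts and 7 of 116 at 10 to 99. In the classes above they were 18 of 86, 25 of 54 and 17 of 32. The 3 in the lowest class were MIMAT0004281, MIMAT0004283 and MIMAT0018504, all with 3 and 15 counts. All these figures count entries and not units, and the exact test can call smaller differences at higher counts. The split of directions depended on the scaling. With TMM scaling, 30 entries were called higher in replicate 2 and 69 in replicate 1, and 65 entries were called under both scalings. Of the top 20 entries, 5 were called by library totals and 20 with TMM.

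The most abundant entries were described by their replicate ratio. Ordered by the ratio of their share in replicate 2 to that in replicate 1 and split at gaps over 0.02, the 32 entries with at least 10000 counts in both libraries formed 5 sets. Of these entries, 22 belonged to near-equal groups, whose equal ratios follow from how the groups were chosen, and with each group counted once the 32 entries were 15 units. The largest set had 15 entries in 5 units, with ratios of 0.988 to 1.01, among them MIMAT0000944, MIMAT0000945, MIMAT0001015 and MIMAT0000187 to MIMAT0000195. It held 47.0% of replicate 1 and 46.8% of replicate 2, and 0 of its entries were called. With TMM scaling its ratios were 0.940 to 0.957, and the same test called all 15. A set of 7 entries in 3 units had ratios of 0.828 to 0.832 and held 11.2% of replicate 1 and 9.32% of replicate 2, namely MIMAT0000166 to MIMAT0000168, MIMAT0000170, MIMAT0000171, MIMAT0001012 and MIMAT0022421. Another 7 entries in 4 units had ratios of 0.862 to 0.869 and held 13.1% and 11.3%, among them MIMAT0000169, MIMAT0000172 and MIMAT0022423. MIMAT0031909 stood alone at 0.925. The last set was MIMAT0000176 at 1.31 (95% exact interval up to 1.32) and MIMAT0001014 at 1.30, which together held 10.5% and 13.7%. All entries of the 4 sets other than the largest were called under both scalings.

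**Figure D5:**
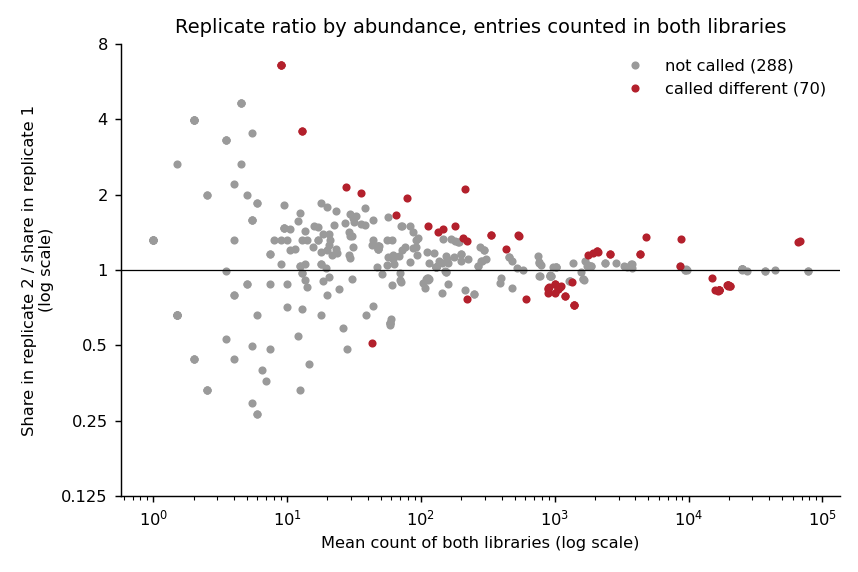
Ratio of an entry's share in WT replicate 2 to its share in WT replicate 1 (y axis, log scale) by the mean count of both libraries (x axis, log scale), for the 358 entries counted in both. Red points are the 70 called entries. Points spread widely at the left, and many of those at the right coincide because members of a near-equal group have the same ratio by selection.

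Some less abundant entries, chosen after their values were seen, also differed between the libraries. MIMAT0001004 had 8689 and 8765 counts, or 6785 and 9063 CPM, a ratio of 1.34 (95% exact interval 1.30 to 1.38, exact binomial test, adjusted p = 3.96e-79). MIMAT0020532 had 4752 and 4885 counts, a ratio of 1.36 (1.31 to 1.42, exact test, adjusted p = 4.83e-50). Both were higher in replicate 2, although the pair of libraries cannot show which is typical of the line. In the other direction, MIMAT0000948, MIMAT0000949 and MIMAT0000950 had 1803 to 1808 counts in replicate 1 and 986 to 988 in replicate 2, and MIMAT0000949 had a ratio of 0.724 (0.669 to 0.782, exact test, adjusted p = 2.28e-15).

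Among the entries with a mean of at least 100 CPM, the 5 with the largest replicate difference were all higher in replicate 2 when scaled by library totals. With TMM scaling, MIMAT0020345 and MIMAT0004265 remained among the 5, and MIMAT0000948, MIMAT0000949 and MIMAT0000950, higher in replicate 1, took the other places. By library totals, MIMAT0020345 differed most, with 127 and 269 CPM and a ratio of 2.11 (1.73 to 2.59, exact binomial test, adjusted p = 5.35e-13). MIMAT0004265 had 82.0 and 123 CPM and a ratio of 1.5 (1.14 to 1.97, exact test, adjusted p = 0.0198), and MIMAT0022424 had 132 and 197 CPM and also 1.5 (1.21 to 1.85, adjusted p = 0.00130). MIMAT0004272 and MIMAT0004240 had ratios of 1.46 (1.15 to 1.84) and 1.42 (1.11 to 1.82). The call of MIMAT0004240, at an adjusted p of 0.0276 by the exact test, was lost with TMM scaling (adjusted p = 0.0614). The other 4 were called under both scalings. Below 100 counts, MIMAT0004281, MIMAT0004283 and MIMAT0018504, singled out after their values were seen, each had 3 counts in replicate 1 and 15 in replicate 2, a ratio of 6.62 with an interval of 1.87 to 35.7. With identical counts in these 3 entries, how many separate observations they stand for was not tested.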

How the data were processed

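Per the file headers, the authors deposited whole-number read counts for each mature miRNA entry and library, not normalized. RNA of 19 to 24 nt was sequenced, per the labels. Per the submitters' processing notes the tools were TopHat2, SAMtools, HTSeq and edgeR; roles, versions, genome build, annotation, strand and the treatment of reads with several matches: not given in the sources used here. The 15 other per-sample columns (fve-8 and normalized values) were not used. None of the 428 identifiers occurs in the reference gene table (0 matched).

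Shares and CPM use library totals. Intervals are 95% Wilson (shares) or exact Clopper-Pearson (ratios). Splits were tested with SciPy 1.17.1 at an adjusted p under 0.05. The test was also run on simulated counts, drawn independently for each entry and with the scaling known. That run cannot show how reads counted on several entries, or the choice of scaling, affect the calls reported here. TMM factors and dispersion came from edgeR 4.0.16 and other size factors from DESeq2 1.42.0, in R 4.3.3. The correlation used a pseudocount of 1 CPM. Named entries are the top 20 and the 5 largest ratios at a mean of at least 100 CPM; parts of the rule that need family names or sequences could not be applied. Other entries named, the near-equal groups and the number ranges were chosen after their values were seen. Members and lists were chosen with earlier results of these data known. The marker CRC was left out because the reference gives that symbol to another gene, and LAT52 had no match. With 1 group there is no contrast between conditions.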

Additional observations from a re-analysis of the deposited data

How the results depend on the processing

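The share of the top 10 entries was 43.2% with pooled counts, and 43.4% under TMM, DESeq2 size factors and a minimum of 10 counts. With either library alone it was 41.9 to 44.9%. The pooled share had to lie between those of the 2 libraries. Rescaled totals were close to the library totals, and entries under 10 counts held few counts. Pooling, rescaling and filtering could therefore hardly have moved the value. Counting near-equal groups once, chosen after seeing the data, raised the top 10 share to 64.4%, and raised the share of the highest entry from 6.90% to 12.3%. With either library alone the highest entry had 6.94 to 7.00%. Detected entries numbered 280 to 388 under the 7 settings tried. Entries called different between the libraries numbered 65 to 99 against 70, with 99 under TMM and 97 under DESeq2 size factors. The correlation ran from 0.983 to 0.996 and the coefficient of variation from 0.114 to 0.123. With tolerances of 0%, 0.5% and 2% there were 8, 24 and 38 near-equal groups. No paired analysis was possible because a single group of 2 libraries was described. A library left out gives no replicate comparison. Shares by family, first base and length, and sums over identical sequences, were not run, since the entries have no names or sequences here. Depth limits entries under 3 counts, and the number of separate reads is not known.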

Other observations

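Counts at the loci of named miRNA genes, from which the primary transcripts come, were read from the 3 wild-type RNA libraries, which are other libraries than the small RNA ones. The RNA table holds 178 of the 326 miRNA genes named in RefSeq (assembly TAIR10.1), with 867 to 967 counts in all per library of 16282013 to 17723538 counts. Of the 178, 40 had a count in all 3 libraries, 40 in some and 98 in none. The gene with the most counts was MIR414, with 201, 212 and 189. Values are raw counts, not per length, so levels are not compared between genes, and reads of overlapping or antisense genes could not be told apart. MIR156c, whose family represses SPL transcription factors and so delays the adult phase, had 147, 112 and 123 counts. In the phase change list (the miR156, miR157 and miR172 families), 4 of 17 genes had a count in every library and 8 in none. MIR167d, of a family that targets the auxin response factors ARF6 and ARF8, had 86, 109 and 134 counts. MIR398b and MIR398c, of a family that targets copper superoxide dismutases, had 63.3 ± 15.9 and 151 ± 27.9 counts (SD, n = 3), and MIR408, which targets copper proteins, had 22, 29 and 27. Of 36 genes in the nutrient list 6 had a count in every library and 22 in none.

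MIR162a and MIR168a, whose products target DCL1 and AGO1, had 28, 43 and 34 counts and 9, 6 and 4 counts, and 3 of 5 genes of the silencing machinery list had a count in every library. In the leaf and meristem list 7 of 20 genes did, among them MIR166a with 6, 16 and 16 counts. In the auxin list 4 of 11 did. Of the triggers of trans-acting small interfering RNAs 1 of 4 did, MIR390a with 12, 5 and 6 counts. These genes could not be paired with the mature entries, so the readouts stand side by side without a comparison.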
